A study of Mus musculus with 12 samples.

Results

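Autophagy delivers cytoplasm, protein aggregates and organelles to the lysosome for breakdown, and its genes were followed here in hind limb muscle of mice with and without the small heat shock proteins αB-crystallin and HspB2. The gene group held 9 members, chosen by name: Ulk1, Becn1, Map1lc3a, Map1lc3b, Gabarapl1, Sqstm1, Bnip3, Ctsl and Lamp2. They are 9 of 22923 gene symbols in the expression files. All 9 passed the filter for testing, an FPKM (a fragment count scaled to transcript length and library size) of at least 1 in at least 3 libraries, which 11945 genes passed.

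RNA from proximal hind limb muscle of male FVB mice at 22 weeks of age was sequenced in 12 libraries, 3 for each of 4 groups. The groups combined 2 genotypes, wild type (WT) and knockout (KO), with 2 diets, normal chow and a diet high in fat. The KO mice lacked both Cryab, which encodes αB-crystallin, and its neighbour Hspb2, in every tissue, and the WT mice came from the same heterozygous breeding. The WT libraries are titled Flox, and nothing in the sources used here describes a floxed allele or a Cre in them. The values below are given in the order of replicates 1, 2 and 3 of each group.

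In autophagy the kinase Ulk1 and the Becn1 lipid kinase complex start the formation of a double membrane, on which ATG8 proteins (the Map1lc3 and Gabarap families) are anchored by lipid conjugation. The adaptor Sqstm1 links ubiquitinated cargo to ATG8 proteins, and Bnip3 marks mitochondria for removal. The closed autophagosome fuses with a lysosome, whose membrane holds Lamp2 and whose proteases include Ctsl. In skeletal muscle the pathway clears damaged proteins and mitochondria and is transcriptionally induced by fasting and denervation. The transcript levels reported here do not measure flux through the pathway.

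Levels of the deleted genes stood with the titles in all 12 libraries. Cryab read 412 to 837 FPKM in the 6 WT libraries and 0.845 to 1.75 FPKM in the 6 KO libraries, and Hspb2 read 81.5 to 103 FPKM against 0.353 to 1.92 FPKM. A separate genotype label conflicts with the title of 6 libraries, so samples were grouped by title. Skeletal muscle markers were abundant in every library. Of the 13 listed, Myh4 was at 0 in all 12 libraries and Acta1 in WT chow replicate 1 and KO high fat replicate 2, and the other 11 summed to 59448 to 105160 FPKM. In 3 libraries, WT chow replicate 2 and KO chow replicates 1 and 3, summed lymphoid markers were 104 to 121 FPKM against 0.909 to 7.79 FPKM in the other 9. Relative depth, read from the steps between low values, differed by at most 1.35 times, and depth in reads is unknown. In KO chow replicate 3 the total over all rows was 10656400 FPKM against 499509 to 691621 FPKM in the other 11 libraries, while its median-of-ratios size factor lay with the others (0.998 to 1.01).

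Promoter windows were available for 7 of the 9 members from RefSeq (build GRCm38.p6), each running from 250 bases before to 50 after the annotated start. They are shown for Ctsl, Lamp2 and Gabarapl1, the members with the smallest p-values between genotypes, and for Bnip3, which shares a motif with Ctsl and whose group means lay between 175 and 181 FPKM. The windows are Ctsl on chr13:64370471-64370770 (minus strand), Lamp2 on chrX:38456411-38456710 (minus), Gabarapl1 on chr6:129532942-129533241 (plus) and Bnip3 on chr7:138909457-138909756 (minus). Capitals mark CACGTG, the E-box core to which TFEB-type lysosomal regulators and many other factors bind.
Ctsl: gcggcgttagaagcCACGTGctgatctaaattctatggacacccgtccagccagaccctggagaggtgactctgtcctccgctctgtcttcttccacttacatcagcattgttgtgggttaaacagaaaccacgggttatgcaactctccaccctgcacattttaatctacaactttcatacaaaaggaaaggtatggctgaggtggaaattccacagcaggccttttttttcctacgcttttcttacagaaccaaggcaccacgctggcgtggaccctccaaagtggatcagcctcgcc
Bnip3: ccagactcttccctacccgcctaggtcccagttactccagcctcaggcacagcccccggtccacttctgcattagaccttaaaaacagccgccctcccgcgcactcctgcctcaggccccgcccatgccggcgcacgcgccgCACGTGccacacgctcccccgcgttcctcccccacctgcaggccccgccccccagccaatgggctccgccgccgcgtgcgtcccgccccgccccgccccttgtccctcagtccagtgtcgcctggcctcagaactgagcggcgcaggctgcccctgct
Lamp2: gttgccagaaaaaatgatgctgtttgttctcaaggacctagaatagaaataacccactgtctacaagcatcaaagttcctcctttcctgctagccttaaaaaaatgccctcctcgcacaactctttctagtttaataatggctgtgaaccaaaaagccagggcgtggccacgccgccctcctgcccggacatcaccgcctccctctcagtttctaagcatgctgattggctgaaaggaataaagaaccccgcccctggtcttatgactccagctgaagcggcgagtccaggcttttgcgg
Gabarapl1: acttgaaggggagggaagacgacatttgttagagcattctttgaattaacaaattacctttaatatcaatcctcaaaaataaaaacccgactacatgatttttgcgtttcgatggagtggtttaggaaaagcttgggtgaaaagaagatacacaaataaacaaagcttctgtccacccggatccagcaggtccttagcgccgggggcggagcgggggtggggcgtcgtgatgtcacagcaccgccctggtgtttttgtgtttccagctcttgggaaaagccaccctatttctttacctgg
CACGTG reads the same on both strands and occurred in 2 of the 7 windows, at 236 bases before the start in Ctsl and 108 bases before it in Bnip3. It was found in 7.15% of 32851 windows of the same length. The forkhead core GTAAACA, searched on both strands, was in 0 of 7 member windows and in 3.65% of all windows. The hypoxia response core ACGTG was in 2 of 7 windows, in each case inside the E-box core, and in 19.6% of all windows. The Ctsl window lies within the gene span of the GENCODE annotation (chr13:64359337-64370890), which starts further upstream than RefSeq.

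All 9 genes were well expressed in muscle, and their order by mean FPKM was Sqstm1, Map1lc3a, Bnip3, Map1lc3b, Ctsl, Gabarapl1, Lamp2, Becn1 and Ulk1. Sqstm1, at a mean of 349 FPKM over 12 libraries, lay above 98.2% of tested genes, and Ulk1, at 24.3 FPKM, above 77.7%. The highest library exceeded the lowest by 1.34 to 1.85 times for 8 of the genes and by 2.33 times for Ctsl. The ranges over the 12 libraries of Map1lc3a (143 to 265 FPKM), Bnip3 (152 to 210 FPKM) and Map1lc3b (130 to 196 FPKM) overlapped one another. Ctsl, at 58.1 to 135 FPKM, overlapped Map1lc3b above it and Gabarapl1 (41.7 to 58.2 FPKM) below it. Gabarapl1, Lamp2 (39.9 to 53.6 FPKM) and Becn1 (34.7 to 46.5 FPKM) overlapped too. Sqstm1 (285 to 409 FPKM) and Ulk1 (19.9 to 29.7 FPKM) were separate from their neighbours.

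**Figure D1:**
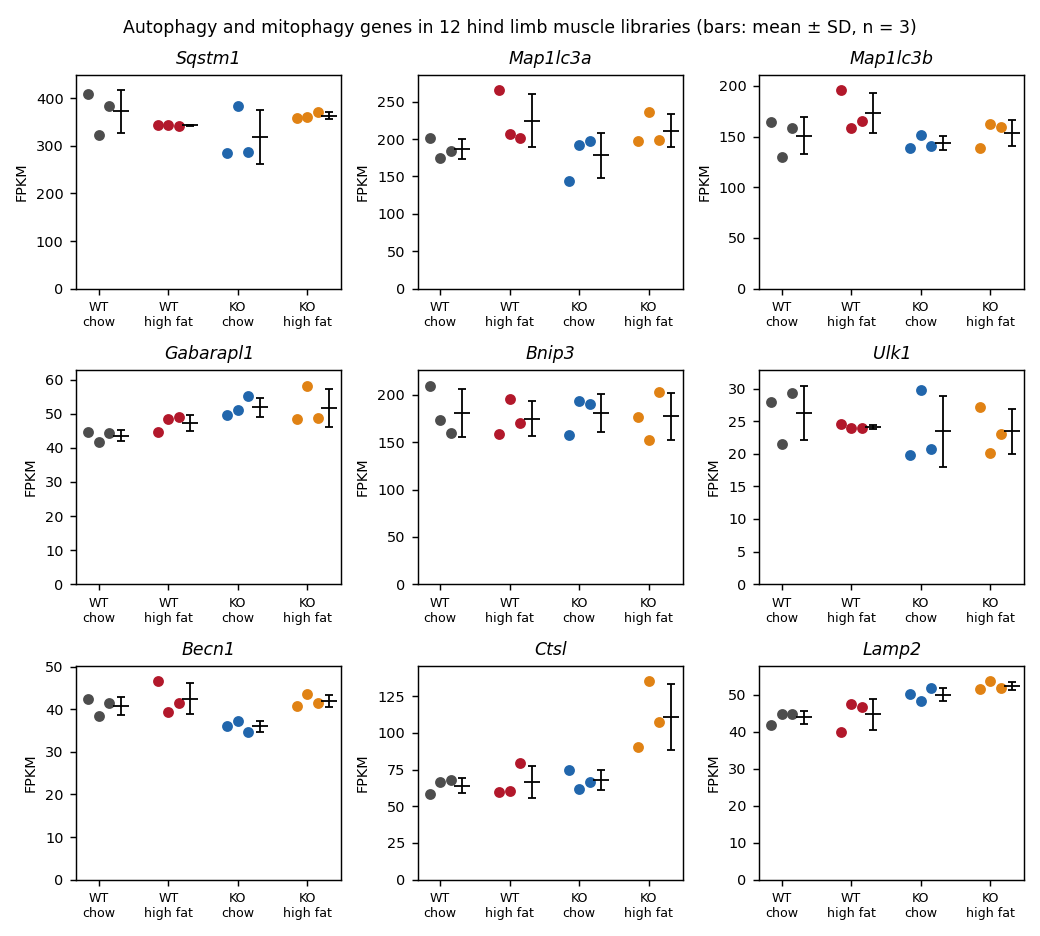
FPKM (y axis, linear from 0) of the 9 genes in each library (points, replicates 1 to 3 from left to right) of the 4 groups (x axis), with the group mean ± SD (n = 3) as a black bar. The 3 KO libraries on the high fat diet hold the highest Ctsl values, 90.6 to 135 FPKM, and the 6 KO libraries lie above the 6 WT libraries for Lamp2.

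Among the genes that start autophagosome formation, Ulk1 (chr5:110784488-110810097 on GRCm38, minus strand) encodes the kinase that receives nutrient signals. It read 27.9, 21.5 and 29.3 FPKM in WT mice on chow, 24.5, 24.0 and 23.9 on the high fat diet, 19.9, 29.7 and 20.7 in KO mice on chow, and 27.1, 20.2 and 23.1 on the high fat diet. The group means lay between 23.4 and 26.3 FPKM and every pair of groups overlapped. Within each chow group the libraries with many lymphoid transcripts held the low values. Those 3 libraries read 19.9 to 21.5 FPKM, against 27.9 to 29.7 FPKM in the other 3 chow libraries. In bulk muscle, fewer muscle cells in the sample and less RNA per cell cannot be told apart.

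Becn1 (chr11:101285952-101302286, minus strand) encodes the scaffold of the lipid kinase complex that acts after Ulk1. Its values were 42.3, 38.3 and 41.5 FPKM in WT mice on chow, 46.5, 39.4 and 41.5 on the high fat diet, 36.0, 37.2 and 34.7 in KO mice on chow, and 40.7, 43.5 and 41.4 on the high fat diet. The 3 KO chow libraries were the 3 lowest of the 12, below all WT chow libraries and all KO high fat libraries. The high fat minus chow difference in KO mice was 0.21 on the log2(FPKM + 1) scale (SE 0.08, limma adjusted p = 0.431), a ratio (of FPKM + 1) of 1.16 with a 95% interval of 1.02 to 1.31. In WT mice the same difference was 0.06 (SE 0.08, adjusted p = 0.897), and the difference between the 2 diet effects was 0.16 (SE 0.11, adjusted p = 0.898). None of these passed the threshold of 0.05 for an adjusted p. Leaving out the 3 libraries rich in lymphoid markers took the diet difference in KO mice to 0.17, with 1 KO chow library left, and quantile normalization of all 12 took it to 0.10.

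Map1lc3a (chr2:155276297-155278073, plus strand) and Map1lc3b (chr8:121590361-121598760, plus strand) encode the LC3 proteins that are conjugated to the autophagosome membrane. Map1lc3a read 201, 175 and 184 FPKM in WT mice on chow, 265, 207 and 201 on the high fat diet, 143, 193 and 198 in KO mice on chow, and 198, 237 and 199 on the high fat diet. Its high fat minus chow difference was the same in both genotypes to 2 decimals, 0.25 in WT (SE 0.15) and 0.25 in KO mice (SE 0.15). Averaged over genotypes the difference was 0.25 (SE 0.11, limma adjusted p = 0.337), and neither genotype's diet groups were separate. Map1lc3b read 164, 130 and 159 FPKM in WT mice on chow, 196, 159 and 165 on the high fat diet, 138, 151 and 140 in KO mice on chow, and 139, 162 and 159 on the high fat diet. Groups of Map1lc3b that shared a genotype or a diet overlapped. The averaged diet difference of Map1lc3b was 0.15 (SE 0.08, limma adjusted p = 0.420).

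Gabarapl1 (chr6:129533160-129542346, plus strand) encodes an ATG8 protein of the other subfamily. It read 44.5, 41.7 and 44.5 FPKM in WT mice on chow, 44.7, 48.3 and 49.0 on the high fat diet, 49.7, 51.1 and 55.1 in KO mice on chow, and 48.5, 58.2 and 48.7 on the high fat diet. All KO chow libraries stood above all WT chow libraries, and all WT high fat libraries stood above the WT chow libraries, the last by a margin of less than 1 FPKM. The KO minus WT difference on chow was 0.25 (SE 0.09, limma adjusted p = 0.279) and on the high fat diet 0.12 (SE 0.09, adjusted p = 0.542). Averaged over diets it was 0.19 (SE 0.06, limma adjusted p = 0.108). By FPKM the 6 WT and the 6 KO libraries overlapped, with WT values up to 49.0 and KO values from 48.5. Of the summed FPKM of the 5 ATG8 genes Map1lc3a, Map1lc3b, Gabarap, Gabarapl1 and Gabarapl2, Gabarapl1 made up 5.46% to 6.85% in the 6 WT libraries and 6.95% to 8.41% in the 6 KO libraries, a share computed after the values had been seen and not tested. The other ATG8 genes had averaged genotype differences of -0.05 for Gabarap (SE 0.06) and -0.15 for Gabarapl2 (SE 0.07, limma adjusted p = 0.222).

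Sqstm1 (chr11:50199366-50210827, minus strand) encodes p62, the adaptor that is itself degraded with its cargo. It read 409, 323 and 384 FPKM in WT mice on chow, 344, 343 and 341 on the high fat diet, 285, 383 and 288 in KO mice on chow, and 358, 360 and 371 on the high fat diet. On the high fat diet the 3 KO libraries lay above the 3 WT libraries, by means of 363 ± 6.79 FPKM against 343 ± 1.25 FPKM (SD, n = 3). The difference was 0.08 on the log2 scale (SE 0.13, limma adjusted p = 0.818), with the spread shared over all 4 groups. On chow it was -0.23 (SE 0.13, adjusted p = 0.350). The chow groups were wide, and each split with the lymphoid markers. The 3 libraries rich in them read 285 to 323 FPKM and the other 3 read 383 to 409 FPKM. Map1lc3b split the same way, at 130 to 140 FPKM against 151 to 164 FPKM. For diet in KO mice the Sqstm1 difference was 0.20 (SE 0.13, limma adjusted p = 0.512) with all libraries and -0.08 without the 3 rich ones, and for Ulk1 it was 0.01 and -0.34. The other 6 members overlapped between those 2 sets of chow libraries. Of all genes tested, 22.8% were likewise lower in each rich library than in each other chow library, so a count of 3 of 9 is near that background. Skeletal muscle markers without Myh4 and Acta1, a sum chosen after the values were seen, read 105160, 76211 and 92693 FPKM in WT chow and 68033, 89954 and 59448 FPKM in KO chow. The 3 rich libraries were the lowest of the 6, and the part of cell makeup in these values was not tested.

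**Figure D2:**
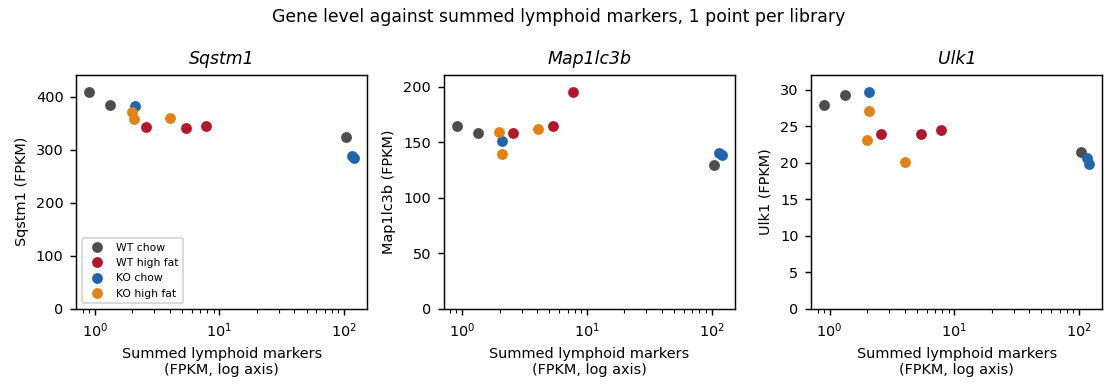
FPKM of Sqstm1, Map1lc3b and Ulk1 (y axes, linear from 0) against the summed FPKM of 13 lymphoid marker genes (x axis, log scale), with 1 point per library coloured by group. The 3 libraries at the right, with sums of 104 to 121 FPKM, are 1 WT chow and 2 KO chow libraries, and for Sqstm1 they read 285 to 323 FPKM.

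Bnip3 (chr7:138890836-138909519, minus strand) encodes a mitochondrial receptor for autophagy and is induced by low oxygen. It read 210, 173 and 160 FPKM in WT mice on chow, 159, 195 and 170 on the high fat diet, 158, 194 and 191 in KO mice on chow, and 177, 152 and 203 on the high fat diet. Group means were 181, 175, 181 and 177 FPKM, with SDs of 18.6 to 25.6 FPKM, and every pair of groups overlapped. The averaged genotype difference was 0.01 with a 95% interval of -0.21 to 0.23, and the averaged diet difference was -0.04 with an interval of -0.26 to 0.18. As a ratio, the interval for genotype ran from 0.863 to 1.17. Of 10 mitophagy genes listed, including Bnip3, 0 passed the adjusted threshold in limma for any comparison, and in the averaged genotype comparison 0 were higher and 2 lower at an unadjusted p under 0.05, where 13.1% of all genes were higher and 13.4% lower. These were Pink1, the kinase that senses damaged mitochondria (-0.31, SE 0.12, limma adjusted p = 0.139), and Park2, the ubiquitin ligase that Pink1 recruits (-0.24, SE 0.09, adjusted p = 0.140). Park2 read 3.10 to 4.51 FPKM in the 6 WT libraries and 2.55 to 3.08 FPKM in the 6 KO libraries, which do not overlap. Such a separation with KO lower was seen in 0.996% of all genes tested.

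Ctsl (chr13:64359337-64370890, minus strand) encodes cathepsin L, a cysteine protease of the lysosome, and had the largest difference of the 9 genes. It read 58.1, 66.3 and 67.7 FPKM in WT mice on chow, 59.8, 60.8 and 79.5 on the high fat diet, 74.9, 61.8 and 66.8 in KO mice on chow, and 90.6, 135 and 107 on the high fat diet. The 3 KO high fat libraries were the highest of the 12, and the other 3 groups overlapped. On the high fat diet the KO minus WT difference was 0.72 (SE 0.16, limma adjusted p = 0.076), a ratio of 1.65 with a 95% interval of 1.30 to 2.09. By p it ranked 114 among all genes tested. In KO mice the high fat minus chow difference was 0.69 (SE 0.16, limma adjusted p = 0.233). On chow the genotype difference was 0.08 (SE 0.16, adjusted p = 0.778), and in WT mice the diet difference was 0.05 (SE 0.16, adjusted p = 0.958). The diet effect in KO mice exceeded that in WT mice by 0.64 (SE 0.22, limma adjusted p = 0.672). These contrasts share the KO high fat group, so they are not separate lines of evidence. Without WT high fat replicate 3 the adjusted p on the high fat diet was 0.0484 at a difference of 0.85, and without KO high fat replicate 2 it was 0.255 at 0.57.

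Lamp2 (chrX:38401357-38456454, minus strand) encodes a heavily glycosylated lysosomal membrane protein, one form of which serves chaperone-mediated autophagy. The annotation lists 3 coding transcripts and the files hold 1 row for Lamp2, so the forms were not separated. It read 41.9, 44.8 and 44.9 FPKM in WT mice on chow, 39.9, 47.6 and 46.7 on the high fat diet, 50.2, 48.4 and 51.7 in KO mice on chow, and 51.7, 53.6 and 52.0 on the high fat diet. The 6 KO libraries, from 48.4 FPKM upward, all lay above the 6 WT libraries, of which the highest read 47.6 FPKM. Such a separation with KO higher was seen in 1.72% of the 11945 genes tested, and in 1 of the 9 members. The averaged genotype difference was 0.21 (SE 0.06, limma adjusted p = 0.0749), a ratio of 1.155 with a 95% interval of 1.06 to 1.26. On chow the difference was 0.19 (SE 0.08, adjusted p = 0.292) and on the high fat diet 0.23 (SE 0.08, adjusted p = 0.198). The averaged diet difference was 0.04 (SE 0.06, adjusted p = 0.716).

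Counted over comparisons, 0 of the 9 genes passed the adjusted threshold in any of 7 comparisons by limma. In WT mice the diet comparison had 0 of 9 genes at an unadjusted p under 0.05, where 4.42% of all genes were higher and 3.7% lower at that p and 0.1% passed the adjusted threshold. The diet comparison in KO mice had 2 of 9, Becn1 and Ctsl, both higher on the high fat diet, where 6.56% of all genes were higher and 0% passed the adjusted threshold. For genotype on chow there were 2 of 9, Gabarapl1 and Lamp2, both higher in KO mice, where 6.73% of all genes were higher at that p and 0.0586% passed. For genotype on the high fat diet there were again 2 of 9, Ctsl and Lamp2, against 9.79% of all genes and 0.109% past the adjusted threshold. For the interaction Ctsl alone was higher, where 3.55% of all genes were and 0% passed. Averaged over genotypes, 3 of 9 (Map1lc3a, Becn1 and Ctsl) were higher on the high fat diet, where 7.96% of all genes were and 0.0586% passed. Averaged over diets, 3 of 9 (Gabarapl1, Ctsl and Lamp2) were higher in KO mice, where 13.1% of all genes were and 0.862% passed.

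Separate groups, in which every library of one group lay above every library of the other, were read against all genes in the same way. In WT mice 1 of 9 members was separate with high fat higher (Gabarapl1), against 6.2% of genes, and in KO mice 2 of 9 (Becn1 and Ctsl), against 10.7%. On chow 2 of 9 were separate with KO higher (Gabarapl1 and Lamp2), against 8.15% of genes, and 1 of 9 with KO lower (Becn1), against 10.2%. On the high fat diet 3 of 9 were separate with KO higher (Sqstm1, Ctsl and Lamp2), against 13% of genes. Without the 3 libraries rich in lymphoid markers the diet difference in KO mice went from 0.21 to 0.17 for Becn1 and from 0.69 to 0.82 for Ctsl. For genotype on chow the differences went from 0.25 to 0.19 for Gabarapl1 and from 0.19 to 0.15 for Lamp2. On the high fat diet the genotype differences stayed at 0.72 for Ctsl and 0.23 for Lamp2. Averaged over diets they went from 0.19 to 0.16 for Gabarapl1, from 0.40 to 0.35 for Ctsl and from 0.21 to 0.19 for Lamp2. Averaged over genotypes, the diet differences went from 0.25 to 0.17 for Map1lc3a, from 0.14 to 0.09 for Becn1 and from 0.37 to 0.45 for Ctsl. For Ulk1 the averaged diet difference went from -0.05 to -0.29, and for Sqstm1 the diet difference in WT mice went from -0.11 to -0.21. The KO chow group then held 1 library, which is assumed to vary like the other groups.

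**Figure D3:**
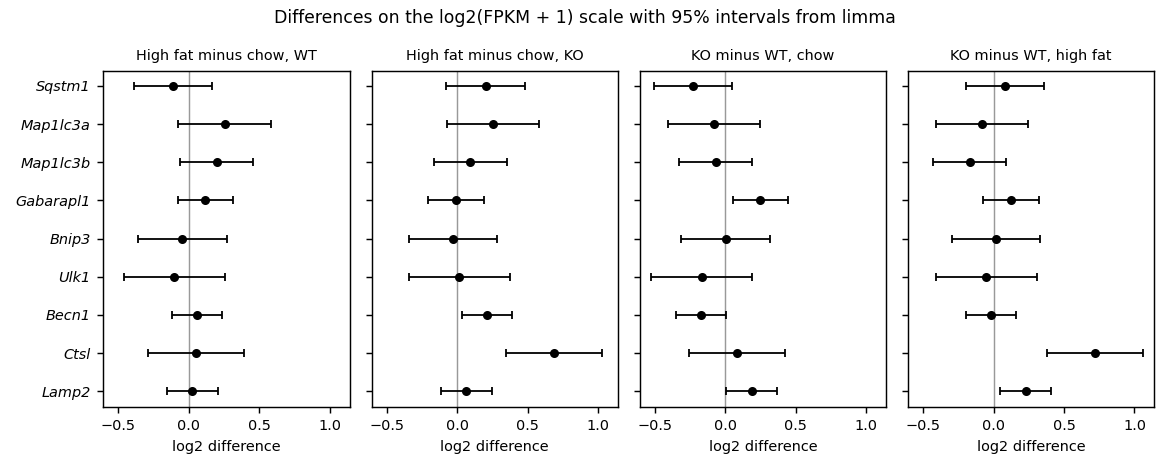
Differences of the 9 genes (rows) on the log2(FPKM + 1) scale (x axes) in 4 comparisons (panels), with 95% intervals from limma as bars and a grey line at 0. The interval of Ctsl lies furthest from 0 in the KO diet comparison and in the high fat genotype comparison, at 0.35 to 1.03 and 0.38 to 1.06.

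The other genes of the pathway were taken from lists by role, 127 genes besides the 9, of which 126 were tested. At an adjusted p under 0.05, limma called 1 of 126 in the averaged genotype comparison, near the 0.862% of all genes called there. In each of the other 6 comparisons it called 0. At an unadjusted p under 0.05, 21 were higher and 3 lower in KO mice on the high fat diet, and 9 were higher and 10 lower on chow. Most of those higher on the high fat diet came from 1 list, the lysosomal proteases and hydrolases, of which 14 of 21 were higher, Ctsl included. Over all genes 9.79% were higher and 6.45% lower on the former diet, and 6.73% higher and 9.93% lower on the latter. For diet, 15 were higher and 2 lower in KO mice, where 6.56% and 4.73% of all genes were, and 3 were higher and 2 lower in WT mice. Averaged over diets, 22 were higher and 11 lower in KO mice, where 13.1% and 13.4% of all genes were. The median difference over the 126 genes was 0.02 for genotype on the high fat diet, where that of all tested genes was -0.01, and 0.08 for diet in KO mice, where that of all genes was 0.03.

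The called gene was Ctsh, which encodes cathepsin H, an aminopeptidase of the lysosome. It read 7.91, 11.6 and 8.10 FPKM in WT mice on chow, 4.89, 6.92 and 6.82 on the high fat diet, 17.5, 10.7 and 13.7 in KO mice on chow, and 12.04, 19.5 and 12.07 on the high fat diet. KO and WT libraries were separate on the high fat diet, as for 13% of genes with KO higher, and overlapped on chow. Ctsh rose in KO mice by 0.82 averaged over diets (SE 0.16, limma adjusted p = 0.0455). The call was lost without the filter on low values, with the replicate number as a block and without the libraries rich in lymphoid markers, where 0 of the wider genes were called. The Ctsh difference was 0.82, 0.82 and 0.73 in these settings. Leaving out 1 library gave 0 to 19 calls among the wider genes, with 19 without KO chow replicate 2, 8 without WT high fat replicate 3, 7 without WT chow replicate 2 and 0 without any 1 of the other 9 libraries.

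Lysosomal proteases and hydrolases made a list of 21 genes, Ctsl among them. On the high fat diet 14 of 21 were higher in KO mice and 0 lower at an unadjusted p under 0.05, and 18 of 21 had a positive difference, where 9.79% of all genes were higher at that p and 47.1% positive. Their median was 0.49, where that of all tested genes was -0.01. On chow 2 of 21 were higher, where 6.73% of all genes were, and 0 lower, with a median of 0.19 against -0.03. There 16 of 21 had a positive difference, where 45.0% of all genes did. Averaged over diets 13 of 21 were higher in KO mice and 0 lower, where 13.1% and 13.4% of all genes were. In the interaction 2 of 21 were higher and 0 lower, where 3.55% of all genes were higher. For diet in KO mice 6 were higher and 0 lower, with a median of 0.18 against 0.03, and in WT mice 1 was higher and 1 lower, with a median of -0.06 against -0.01. Without KO high fat replicate 2, the count for genotype on the high fat diet was 10 of 21, where 6.61% of all genes were higher. That for diet in KO mice was 2 of 21, where 4.68% of all genes were higher. No test of the list as a whole was made.

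Lipa, the acid lipase that splits cholesterol esters and triglycerides in the lysosome, read 5.73, 8.30 and 11.2 FPKM in WT mice and 16.1, 22.7 and 17.7 FPKM in KO mice on the high fat diet. The KO libraries were above all WT libraries on that diet, by 1.10 (SE 0.23, limma adjusted p = 0.0688). Psap, the precursor of the saposins that assist lipid breakdown, differed between genotypes on the high fat diet by 0.08 (SE 0.10, adjusted p = 0.759). Among genes named after their values were seen, Ctss and Ctsk, cathepsins abundant in macrophages and osteoclasts, read 24.2 to 56.6 and 19.0 to 50.8 FPKM in KO mice on the high fat diet. In WT mice on that diet they read 5.98 to 17.7 and 8.12 to 17.6 FPKM. Ctsb, a widely expressed cathepsin, read 161, 199 and 167 FPKM against 123, 113 and 138 FPKM. The KO values were above the WT values for each of these 3 cathepsins. Gaa, the glycogen-splitting enzyme of the lysosome, read 79.2 to 89.8 FPKM in KO and 82.2 to 94.9 FPKM in WT mice on the high fat diet, which overlap.

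**Figure D4:**
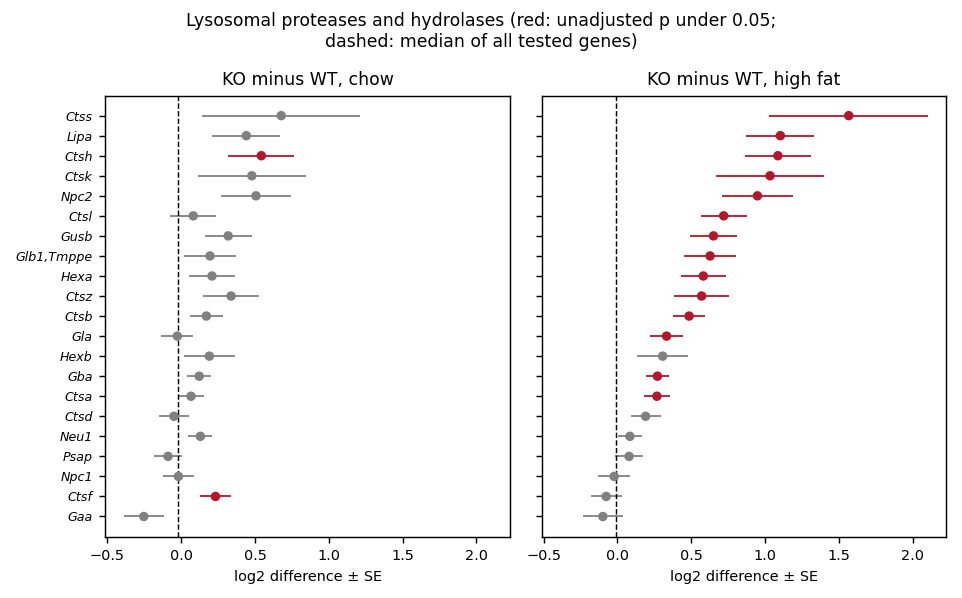
KO minus WT differences on the log2(FPKM + 1) scale (x axes, points with SE bars) of 21 lysosomal proteases and hydrolases (rows) on chow (left) and on the high fat diet (right). Red marks an unadjusted p under 0.05, reached by 2 genes on chow and 14 on the high fat diet, and the dashed line is the median of all tested genes.

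Macrophage markers were also higher in KO mice. Of 12 tested macrophage markers, which share no gene with the hydrolase list, 10 were higher in KO mice on the high fat diet at an unadjusted p under 0.05 and 3 were higher on chow, with medians of 1.16 and 0.70. The summed FPKM of the 13 listed markers was 177, 245 and 299 in WT mice and 441, 683 and 353 in KO mice on the high fat diet, so the groups did not overlap. On chow the sums were 245, 522 and 241 in WT mice and 664, 361 and 699 in KO mice. No marker was at 0 in all libraries of a group. Cd68, a macrophage lysosomal protein, read 3.11, 7.54 and 11.6 FPKM in WT mice and 20.5, 40.1 and 20.7 FPKM in KO mice on the high fat diet. On chow it read 8.18, 12.4 and 6.84 FPKM in WT mice and 18.5, 10.4 and 16.0 FPKM in KO mice. All KO high fat libraries were thus above all other libraries for Cd68, as for Ctsl. By group mean in KO mice, Emr1, Mpeg1 and Fcgr1 were also higher on the high fat diet, and Csf1r and Lyz2 were nearly equal. Cd14, Mrc1, Cd163, Cd74, C1qa, C1qb and C1qc had lower means there than on chow. The median diet difference of the 12 tested markers in KO mice was -0.18, where that of all genes was 0.03. KO high fat replicate 2 was the highest library for Cd68, Ctsl, Lipa and Ctss. In the KO chow libraries the macrophage sums of 664, 361 and 699 FPKM stood beside Ctsl values of 74.9, 61.8 and 66.8 FPKM. In the KO high fat libraries the sums of 441, 683 and 353 FPKM stood beside Ctsl values of 90.6, 135 and 107 FPKM. KO chow replicates 1 and 3 are among the 3 libraries rich in lymphoid markers, and the list includes Cd74, which B cells also express. Without Cd74, a sum chosen after the values were seen, the KO chow libraries read 416, 293 and 458 FPKM. The KO high fat libraries then read 359, 553 and 258 FPKM. On the high fat diet the groups stayed separate without Cd74, at 143 to 223 FPKM in WT and 258 to 553 FPKM in KO mice. The part of macrophage RNA in the Ctsl and Lamp2 differences was not tested.

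Other markers differed between the same groups. Adipocyte markers summed to 608 to 1799 FPKM in WT and 1881 to 2358 FPKM in KO mice on the high fat diet. There 6 of 9 were higher in KO mice at an unadjusted p under 0.05, where 9.79% of all genes were. On chow the sums overlapped, at 622, 2270 and 1533 FPKM in WT mice and 4724, 2192 and 4326 FPKM in KO mice. At that p 3 of 9 were higher in KO mice on chow, where 6.73% of all genes were. Averaged over diets 8 of 9 were higher, where 13.1% of all genes were. Neutrophil markers summed to 125 to 1171 FPKM in WT mice on the high fat diet, against 10.3 to 42.8 FPKM in KO mice on that diet and 2.19 to 27.5 FPKM in WT mice on chow. On the high fat diet, sums of endothelial and blood markers ran from 2594 to 5225 FPKM for WT libraries. For KO libraries they ran from 1221 to 2944 FPKM, so the ranges overlapped. At an unadjusted p under 0.05, 4 of 7 fell below WT there. Haemoglobin genes made up most of these sums. Their WT means against KO means were 1723 against 796 FPKM (Hba-a1,Hba-a2), 1391 against 666 (Beta-s) and 732 against 341 (Hbb-b1,Hbb-b2). The endothelial genes had closer means, 36.6 against 31.8 FPKM for Pecam1, 35.7 against 30.8 for Cdh5 and 9.94 against 8.56 for Kdr. The part of these markers in the differences of the 9 genes was not tested.

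**Figure D5:**
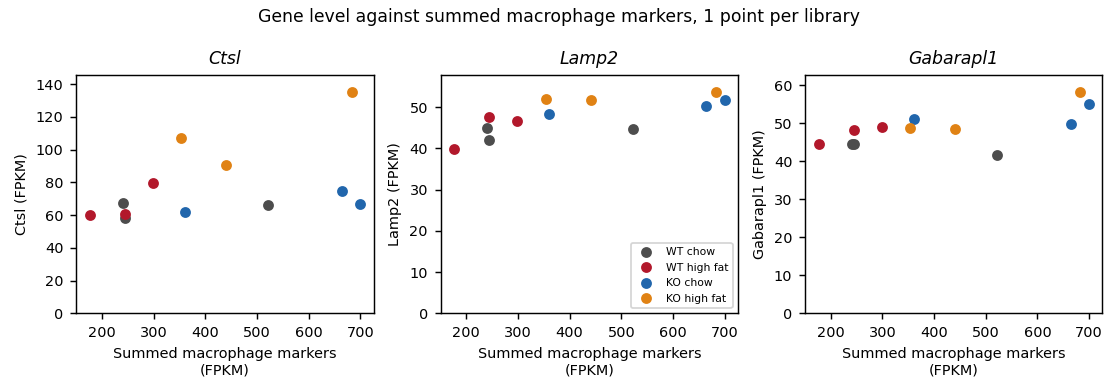
FPKM of Ctsl, Lamp2 and Gabarapl1 (y axes, linear from 0) against the summed FPKM of 13 macrophage marker genes (x axis, linear), with 1 point per library coloured by group. The KO high fat libraries have the 3 highest Ctsl values at sums of 353 to 683 FPKM, and the KO chow libraries read 61.8 to 74.9 FPKM at sums of 361 to 699 FPKM. The KO chow libraries with sums of 664 and 699 FPKM are rich in lymphoid markers. Cd68, 1 of the 13 markers, was highest in the KO high fat libraries, at 20.5 to 40.1 FPKM.

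Of the 17 genes of the proton pump that acidifies the lysosome, all 17 had a positive high fat minus chow difference in KO mice, 4 of them at an unadjusted p under 0.05, with a median of 0.17. Over all genes 56.0% were positive and 6.56% were higher at that p, with a median of 0.03. In WT mice 14 of 17 were positive and 0 had such a p, with a median of 0.05, where 46.4% of all genes were positive. Summed over the 17 genes, KO mice read 975.5, 1072.5 and 973.9 FPKM on chow and 1108.5, 1194.2 and 1154.2 FPKM on the high fat diet. WT mice on chow read 1156.0, 996.3 and 1114.1 FPKM. KO chow replicates 1 and 3 and WT chow replicate 2, the lowest of their groups, are the libraries rich in lymphoid markers. The part of cell makeup in these differences was not tested. Atp6v0a1, a subunit of the membrane sector, read 27.6, 31.2 and 27.6 FPKM in KO mice on chow and 39.4, 39.0 and 40.9 FPKM on the high fat diet. The groups were separate, as for 10.7% of genes with high fat higher, with a difference of 0.45 (SE 0.11, limma adjusted p = 0.300). In WT mice Atp6v0a1 differed by 0.20 (SE 0.11, adjusted p = 0.701), and the 2 diet effects differed by 0.25 (SE 0.16, adjusted p = 0.884).

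Other roles are read against the averaged genotype comparison of all genes, with 13.1% higher and 13.4% lower at an unadjusted p under 0.05. Of 16 genes of the lysosome membrane and of fusion, Lamp2 included, 1 was higher and 1 lower in KO mice averaged over diets at an unadjusted p under 0.05. Lamp1, which encodes the membrane protein most like Lamp2, differed between genotypes by -0.06 (SE 0.07, limma adjusted p = 0.584). Of 14 genes of the initiation and lipid kinase complexes, 1 was higher and 1 lower, and of 11 ATG8 conjugation enzymes 1 was higher and 2 lower. Among these were Atg10, a conjugating enzyme (-0.36, SE 0.08, limma adjusted p = 0.0593), and Atg7, the activating enzyme (0.21, SE 0.07, adjusted p = 0.0928). Wipi1, a lipid-binding protein of the forming membrane, was the gene of its list with the smallest p for diet, at 0.33 averaged over genotypes (SE 0.10, limma adjusted p = 0.231). Calcoco1, a receptor for the endoplasmic reticulum, had an averaged diet difference of 0.23 (SE 0.07, adjusted p = 0.245).

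Upstream of the pathway, 4 of 27 regulators were higher and 2 lower in KO mice averaged over diets at an unadjusted p under 0.05, near the 13.1% and 13.4% of all genes, and 0 passed the adjusted threshold by limma. Foxo1, a forkhead factor that drives autophagy and atrophy genes in muscle, read 10.2, 9.64 and 10.4 FPKM in KO mice on chow and 8.65, 5.51 and 6.35 FPKM on the high fat diet. Its diet difference in KO mice was -0.52 (SE 0.13, limma adjusted p = 0.353). In WT mice it was -0.18 (SE 0.13, adjusted p = 0.800). Of the 27 regulators, 1 was higher and 2 lower for diet in KO mice at an unadjusted p under 0.05. Over all genes 6.56% were higher and 4.73% lower. The KO minus WT difference of Foxo1 was 0.34 on chow (SE 0.13, limma adjusted p = 0.281). On the high fat diet that difference was 0.006 (SE 0.13, adjusted p = 0.993).

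For each of the 9 genes, the genes whose log2(FPKM + 1) values followed it most closely over the 12 libraries were ranked by Pearson r. These libraries differ in group and in cell makeup, so r describes them and is given without a p. Ctsl was followed most closely by Cd300lb, a receptor of myeloid cells (r = 0.97), by Cstb, a cysteine protease inhibitor (r = 0.959), and by Dpep2 (r = 0.958). Lamp2 was followed by Fst, the activin and myostatin antagonist follistatin (r = 0.966), B4galt6 (r = 0.954) and the chemokine Ccl6 (r = 0.949). Sqstm1 was followed by Dnajb12, Drap1 and the muscle methyltransferase Smyd1, at r of 0.954 to 0.963, and Map1lc3b by Cutc, Vbp1 and Camta1, at 0.94 to 0.98. Map1lc3a was followed by Mrps7, Dmpk and Ndufb7 at 0.926 to 0.93, and Gabarapl1 by Pqlc1, Bex1 and Igsf1 at 0.921 to 0.926. The nearest genes were AI314180, Ube3b and Psme4 for Ulk1 (0.941 to 0.953) and Fam192a, 1810006K21Rik and Art1 for Becn1 (0.952 to 0.967). Bnip3 had the weakest neighbours, Raph1 at 0.906, Cebpz at 0.811 and Car14 at 0.81.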

How the data were processed

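RNA from hind limb muscle was sequenced by the authors (Illumina HiSeq2000, paired ends), and FPKM values by gene symbol were deposited for each library, without pooling. The unit was read from the values, and the submitters' processing notes name TopHat2 2.0.8b, Cuffdiff 2.1.1 and build mm10 without saying what each was used for. Groups follow the titles and source names.

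Each file has 23179 rows. Of 158 symbols on several rows, 0 of them members, the row of highest mean was used. Genes with FPKM of at least 1 in at least 3 of 12 samples, 11945 in all, were tested on log2(FPKM + 1) with limma 3.58.1 in R 4.3.3, using 4 group means, an intensity trend and 8 residual degrees of freedom. Benjamini-Hochberg adjustment ran over all tested genes, with a threshold of 0.05. The script was tested on simulated data. Descriptions were computed in Python 3.11.15 with pandas 2.3.3 and NumPy 2.4.6. The 7 comparisons were diet in each genotype, genotype on each diet, their interaction, and diet and genotype averaged over the other factor.

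The 9 members, the role and marker lists, the tests and the lymphoid limit of 5 times the median were chosen with earlier results of these data known. Outdated symbols in the lists were matched through RefSeq synonyms after the files were read, and the motif list was cut to 3 short cores after a first search of the windows. Of the wider lists, genes past the threshold are named, and otherwise some of the up to 2 per list with the smallest p in an averaged comparison. For each member the 3 genes with the highest r are named. Positions are from GENCODE M21 (GRCm38) and promoter windows from RefSeq (GRCm38.p6). Same-numbered samples deviated from their group means with correlations of -0.806 to 0.387, and 2 of 12 were above 0.1, so replicate numbers were not treated as pairs. Alternatives were a pseudocount of 0.1, no filter, a replicate block, only the groups compared, grouping by the genotype label, each sample left out, no lymphoid-rich libraries, size factors, quantile normalization and robust moderation. Depth in reads is unknown, so no counting interval is given.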

Additional observations from a re-analysis of the deposited data

How the results depend on the processing

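Of 63 results on the 9 genes, recomputed 1296 times, 1293 values kept their side of the adjusted threshold and 3 gained a call: Ctsl on the high fat diet without WT high fat replicate 3 (0.85), and Ctsl averaged over diets without that library (0.47) or without KO chow replicate 2 (0.43). The sign changed 103 times, over 44 results. In 6 of these the unadjusted p was under 0.05 in either fit, all with genotype taken from the conflicting label: Ctsl on the high fat diet (-0.56), in the interaction (-0.64) and averaged (-0.24), Lamp2 on the high fat diet (-0.18) and averaged (-0.038), and Gabarapl1 averaged (-0.016). The other sign changes, in values with no such p, were not counted as reversals, a rule set after they had been seen. The cause of the changes below was not tested.

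Genes called in the averaged genotype comparison numbered 103. They numbered 42 without the filter, 40 with the replicate block, 0 by the genotype label, 11 without lymphoid-rich libraries and 200 after quantile normalization, and 10 to 1208 with 1 library left out (1208 without KO chow replicate 2, 10 without WT chow replicate 1). For diet in WT mice, 12 became 7 with the replicate block, 3 with only the groups compared, 0 by label, 1 without lymphoid-rich libraries and 1 to 32 with 1 library out. For diet in KO mice, 0 became 6 without the filter, 7 with only the groups compared, 9 after quantile normalization and 0 to 10 with 1 library out. For genotype on chow, 7 became 4 with the replicate block, 4 with only the groups compared, 0 by label and 4 to 14 with 1 library out. For genotype on the high fat diet, 13 became 24 without the filter, 5 with the replicate block, 8 with only the groups compared, 0 by label, 26 after quantile normalization and 4 to 82 with 1 library out. For the averaged diet comparison, 7 became 1 with the replicate block, 0 by label, 1 without lymphoid-rich libraries and 1 to 18 with 1 library out. The interaction gave 1 without the filter and 0 to 1 with 1 library out. Of the wider autophagy genes, 1 call averaged over diets became 0 without the filter, with the replicate block, by label and without lymphoid-rich libraries, 2 after quantile normalization and 0 to 19 with 1 library out, and on the high fat diet 0 became 0 to 2 with 1 library out. The replicate block changed no call of the 9 genes. No count could be tied to sequencing depth, which is unknown in reads.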

Other observations

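FoxO-type atrophy genes, 18 genes that share regulators with autophagy genes in muscle, held 1 gene past the adjusted threshold in limma. It passed in the averaged genotype comparison, where 0.862% of all genes did. Cdkn1a, the cell cycle inhibitor p21, read 7.02, 8.43 and 12.3 FPKM in WT mice on chow, 7.63, 13.3 and 12.1 on the high fat diet, 17.4, 24.5 and 39.2 in KO mice on chow, and 31.4, 50.7 and 23.2 on the high fat diet. The 6 KO libraries lay above the 6 WT libraries, as for 1.72% of genes. Cdkn1a rose in KO mice by 1.48 averaged over diets (SE 0.24, limma adjusted p = 0.0245). Its adjusted p was 0.0531 without the filter on low values and 0.211 without the libraries rich in lymphoid markers, and ran from 0.0196 to 0.0884 with 1 library left out, at differences of 1.33 to 1.61. By the conflicting genotype label the difference was -0.46. Of the 18 genes, 4 were higher and 1 lower in that comparison at an unadjusted p under 0.05, where 13.1% of all genes were higher and 13.4% lower. Of 11 tested genes that respond to low oxygen with Bnip3, 1 was higher and 3 lower, and 0 passed the adjusted threshold.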
